A study of Danio rerio with 6 samples.

Results

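Blood stem and progenitor cells are set apart from other cells by a small group of transcription factors and growth factor receptors. The 10 genes of this kind described here were picked by name, with earlier results of these data known and no threshold on values: the transcription factor genes *runx1*, *gata2a*, *gata2b*, *myb*, *meis1b*, *mecom*, *hhex* and *lyl1*, and the receptor genes *kita* and *flt3*. Of these, 9 were paired by symbol with a row of the table of 32105 genes. *lyl1* was paired with no row and was not analysed here. 8 of the 9 passed the filter on low counts, and *mecom* did not.

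In vertebrate embryos, the first lasting blood stem cells arise from the endothelium of the dorsal aorta. Runx1 drives that step, Gata2 proteins act upstream of it, and Myb is needed for the cells that emerge to persist and expand. The cells then settle in a niche, in fish first the caudal haematopoietic tissue and later the kidney marrow, where receptor tyrosine kinases such as Kit and Flt3 carry survival and growth signals. Ikaros, the zinc finger protein encoded by *ikzf1*, acts in the progenitors that turn towards lymphoid fates.

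The libraries were labelled as whole body of zebrafish at 5 dpf (days post fertilization). They compared 3 libraries homozygous for the *ikzf1* allele fr105 with 3 from wild-type siblings, here named mutants 1 to 3 and wild-type fish 4 to 6. According to the methods, each library was made from 1 fish, and the siblings were homozygous for the wild-type allele. All were drawn from mixed wild-type strains. fr105 is a deletion inside *ikzf1* made with CRISPR guides, and it is the only mutant allele in these libraries. The paper also compared it with another mutant allele of *ikzf1*, which is not part of them. Total counts ranged from 34759504 to 39404324, and the even share of counts from 1 to 4 was 78.0% to 79.9%, as occurs when both mates of a read pair are counted. Values below are CPM, the count of a gene scaled to a fixed library total after TMM correction. Fold changes and p-values were computed in edgeR by quasi-likelihood, and the p-values were adjusted after Benjamini and Hochberg over 16630 genes.

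Before the results, the tissue label was checked against marker genes, and the age label was not checked. The 4 skeletal muscle genes paired with a row summed to at most 0.362 CPM in any library, the 3 lens genes to at most 1.95 CPM and the 3 neuron genes to at most 0.105 CPM. The muscle gene *myhz2*, the lens gene *cryaa* and the neuron gene *elavl3* were at 0 in all 6 libraries. By contrast, the 7 erythroid genes summed to between 8676 and 25921 CPM and the 6 neutrophil genes to between 23769 and 50820 CPM. The markers therefore went against the whole-body label, and the samples are called libraries here, with no tissue name of their own. Counts on *ikzf1* itself were 1155 ± 288 CPM (SD, n = 3) in mutants and 223 ± 44.2 CPM (SD, n = 3) in wild type, a log2 fold change of 2.37 (SE 0.23, adjusted p = 0.000362). They were summed over the whole gene, so they do not show the deletion.

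Of the stem and progenitor genes, only *meis1b* rose in the mutants, by 1.78-fold, under a threshold of 0.05 on the adjusted p. None of the 8 genes tested fell in edgeR, 0 were lower at an unadjusted p under 0.05, and DESeq2 also called 0 lower. *runx1* and *myb*, the factors most closely tied to the birth of blood stem cells, had log2 fold changes of -0.16 and -0.17, and the 95% intervals reached no lower than -0.52 and -0.43. So 1 of the 8 tested members was called, set against 19.8% of all genes tested. In single directions, 1 of 8 members was higher against 11% of all genes, and 0 of 8 were lower against 8.76%. The share of members called was near that background. The median log2 fold change of the 8 was -0.15, and that of all genes tested was -0.0048. Groups did not overlap for 2 of the 8, *meis1b* and *hhex*, against 41.9% of all genes tested. In bulk samples, fewer cells of a type and less RNA per cell cannot be told apart.

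**Figure D1:**
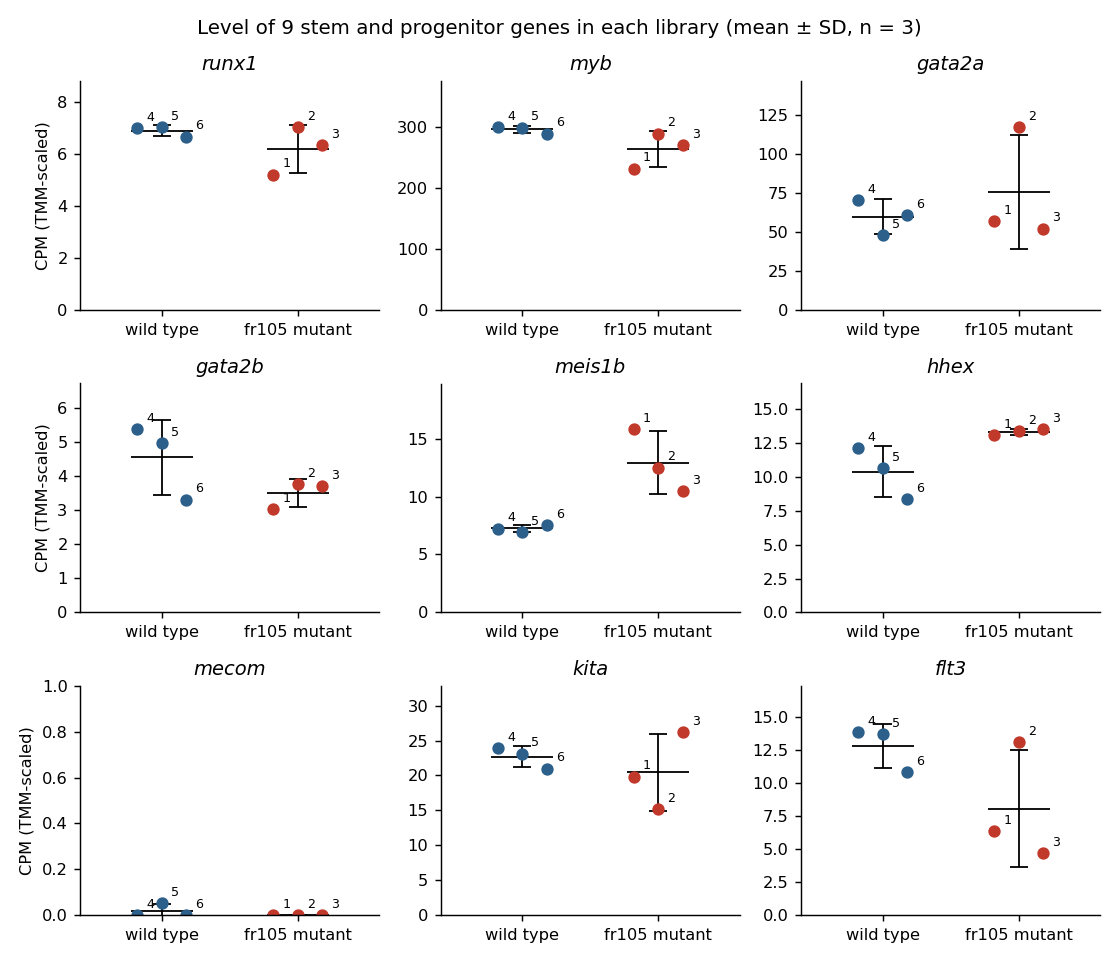
Level of each stem and progenitor gene in CPM, in the 3 mutant and 3 wild-type libraries, with the mean and SD of each group as bars, the library numbers beside the points, and a vertical axis of its own for each gene. The mutants lie above every wild-type library for *meis1b* and *hhex*, while for *gata2a* and *flt3* mutant 2 lies well above the other mutants.

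*runx1* encodes the DNA-binding Runt domain factor that turns endothelium into blood. It was at 5.20, 7.04 and 6.33 CPM in mutants 1, 2 and 3, and at 6.98, 7.04 and 6.66 CPM in wild-type fish 4, 5 and 6. The groups overlapped, and mutant 2 was level with the highest wild-type library. The means were 6.19 ± 0.927 CPM (SD, n = 3) and 6.89 ± 0.202 CPM (SD, n = 3), and the difference of -0.16 on the log2 scale (SE 0.16) had a 95% interval from -0.52 to 0.21 and an adjusted p of 0.519. The coefficient of variation was 15% among mutants and 2.94% among wild-type fish.

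*myb* encodes the proto-oncoprotein on which definitive blood cells depend. Its level was 232, 289.5 and 270 CPM in the mutants, and 300.5, 299 and 289.4 CPM in wild type. Mutants 1 and 3 were below all wild-type fish and mutant 2 was level with the lowest of them, the same order of mutants as for *runx1*. The means were 264 ± 29.4 and 296 ± 6.00 CPM (SD, n = 3 each), and the log2 difference was -0.17 (SE 0.11, 95% interval -0.43 to 0.09, adjusted p = 0.319). A log2 difference below -0.43 is outside that interval.

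The zebrafish has a pair of *GATA2* genes. *gata2b* is the copy expressed in the endothelium that gives rise to blood stem cells, upstream of *runx1*. It was at 3.03, 3.78 and 3.72 CPM in mutants and at 5.38, 4.98 and 3.32 CPM in wild type. The mutants lay close together, and wild-type fish 6 fell among them. The log2 difference was -0.38 (SE 0.23, 95% interval -0.90 to 0.15, adjusted p = 0.272), the means being 3.51 ± 0.418 and 4.56 ± 1.1 CPM (SD, n = 3 each).

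*gata2a*, the copy with wider expression in vessels and other tissues, was at 57.2, 118 and 52.3 CPM in the mutants and at 70.4, 48.1 and 61.2 CPM in wild type. Mutant 2 alone was above the wild-type range, and the other mutants were inside it. The log2 difference was 0.34 (SE 0.30, 95% interval -0.36 to 1.04, adjusted p = 0.459). Without mutant 2 the estimate was -0.12, so the direction of the *gata2a* difference rested on that library.

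*meis1b* encodes a homeodomain protein of the TALE class that binds DNA together with Pbx and Hox proteins and, in mammals, sustains stem cells. It was at 15.8, 12.5 and 10.5 CPM in mutants 1, 2 and 3, from 605, 449 and 366 counts. In wild-type fish 4, 5 and 6 it was at 7.24, 6.96 and 7.56 CPM, from 277, 268 and 303 counts. Every mutant was above every wild-type fish, and the lowest mutant stood 1.45 times as high as the wild-type mean. The means were 12.9 ± 2.69 and 7.25 ± 0.300 CPM (SD, n = 3 each). The log2 fold change was 0.83 (SE 0.17, 95% interval 0.44 to 1.23) and the adjusted p was 0.0123. By that p, *meis1b* was in position 1602 of the 16630 genes tested. The exact permutation test, two-sided, gave p = 0.1, the smallest value that 3 against 3 libraries allow. *meis1b* stayed under 0.05 when any 1 library was removed, with log2 fold changes from 0.67 to 0.97. It did not pass a threshold of 0.01.

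*hhex* encodes a homeodomain factor of early endothelial and blood progenitors, which also acts in the liver. It was at 13.1, 13.4 and 13.5 CPM in the mutants and at 12.1, 10.7 and 8.36 CPM in wild type. The groups did not overlap, but wild-type fish 4 was close to the lowest mutant. The mutants agreed closely, with a coefficient of variation of 1.77%, against 18.4% in wild type. The log2 difference was 0.36 (SE 0.15, 95% interval 0.0022 to 0.72), with an adjusted p of 0.138, so *hhex* was not called.

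*mecom* encodes the zinc finger protein Evi1, which preserves stem cells in mammals. It had 0, 0 and 0 counts in the mutants and 0, 2 and 0 counts in wild type. Both groups were under the level of 3 counts a library, which corresponds to between 0.0761 and 0.0863 CPM, and no fold change is given. At this depth a difference in *mecom* was not detectable.

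*kita* encodes a receptor for Kit ligand, carried by progenitors and mast cells and, in the skin, by melanocytes. It was at 19.8, 15.2 and 26.3 CPM in mutants and at 23.9, 23.1 and 21.0 CPM in wild type. Mutant 2 had the lowest level and mutant 3 the highest of all 6 libraries. The log2 difference was -0.15 (SE 0.19, 95% interval -0.58 to 0.28, adjusted p = 0.606), and without mutant 2 it was 0.03. No direction can be given for *kita*.

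*flt3* encodes the receptor that, in mammals, marks progenitors primed for lymphoid and dendritic cell fates. It was at 6.35, 13.1 and 4.69 CPM in mutants 1, 2 and 3, and at 13.8, 13.7 and 10.82 CPM in wild-type fish 4, 5 and 6. Mutants 1 and 3 had 0.497 and 0.367 times the wild-type mean, whereas mutant 2 had 1.02 times that mean. The log2 difference over all libraries was -0.67 (SE 0.34, 95% interval -1.46 to 0.12, adjusted p = 0.202), and the exact permutation test, two-sided, gave p = 0.2. *flt3* was therefore not called. Without mutant 2, an alternative that leaves 2 mutants against 3 wild-type fish, the log2 difference was -1.20 with an adjusted p of 0.0116. Mutant 2 was the mutant at the wild-type level, so its removal could only widen the difference. With any other library left out *flt3* was not called, at log2 differences from -0.77 to -0.39 and adjusted p from 0.208 to 0.432. Genes of lymphocytes are given here for comparison. Of the 5 B cell markers tested 4 were lower and 0 higher, beside 8.76% and 11% of all genes tested. The 4 lower markers had log2 fold changes from -3.39 (*cd79b*) to -2.15 (*pax5*). The summed level of the 5 was 72.9, 59.3 and 56.8 CPM in mutants 1, 2 and 3 and 132 to 215 CPM in wild type. In mutants 1, 2 and 3 most of that sum came from *cd40*, at 48.9, 45.4 and 46.3 CPM. *cd40* was at 51.2, 44.2 and 45.5 CPM in wild-type fish 4, 5 and 6 and was not called. Of the 6 T cell markers 3 were lower and 0 higher, beside the same shares of all genes. The sums were 114, 170 and 102 CPM in mutants 1, 2 and 3 against 259 to 290 CPM in wild type. Most of the T cell sum came from the chemokine receptor gene *ccr9a*, at 97.0, 156 and 90.9 CPM in mutants 1, 2 and 3. The paper lists *ccr9a* in its profiles of both T cells and B cells, so that sum is not particular to T cells. Among mutants, mutant 2 was the highest for *flt3* and for the T cell markers *ccr9a*, *lck* and *cd8a* (1, 14 and 7 counts). Mutant 1 was the highest for the T cell markers *zap70*, *cd4-1* and *tcf7* and for the B cell sum. These markers were named after their values were seen. None of these markers was at 0 in every mutant, and their part in the *flt3* values was not tested.

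**Figure D2:**
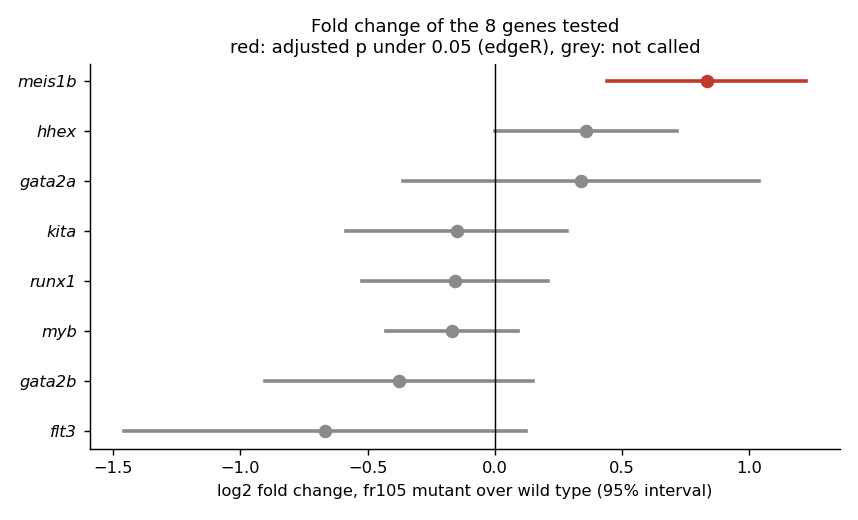
Log2 fold change of the mutants over wild type for the 8 members tested, with bars for the 95% interval, red for a called gene and grey for the others. The interval of *meis1b* lies above 0, from 0.44 to 1.23, and that of *flt3* is the widest, from -1.46 to 0.12.

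Mutant 2 lay outside the range of the other mutants in *gata2a*, *flt3*, *kita*, *runx1*, *myb* and *gata2b*, and between them in *meis1b* and *hhex*. It stood furthest, by ratio, from the nearer of the other mutants in *gata2a*, *flt3* and *kita*. Its *gata2a* level was 2.06 times that of mutant 1 and 2.25 times that of mutant 3, and its *flt3* level was 2.06 and 2.79 times theirs. For *kita* the order was turned: mutant 2 had 0.766 times the level of mutant 1 and 0.579 times that of mutant 3. With 0.5 added to each CPM, mutant 2 was at least 1.8-fold above both other mutants in 146 of all genes tested, or 0.878%. The same count was 83 for mutant 1 and 69 for mutant 3, and it ranged from 83 to 188 among the wild-type fish. By the chi-square per gene between libraries, mutants 1 and 3 were the closest pair of all, at 44.1, and mutant 2 was the mutant nearest to each wild-type fish, at 120, 162 and 85.2 for fish 4, 5 and 6. That measure is a mean over genes on raw counts, so genes with high counts weigh most in it. The 1.8-fold limit was chosen after the values were seen. Among the members and the 67 related genes described next, it marked *gata2a* and *flt3* in mutant 2, *csf3b* in mutant 1 (above) and *tal2* in wild-type fish 5 (below). Without mutant 2, 2 members were called in place of 1, *meis1b* as higher and *flt3* as lower.

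**Figure D3:**
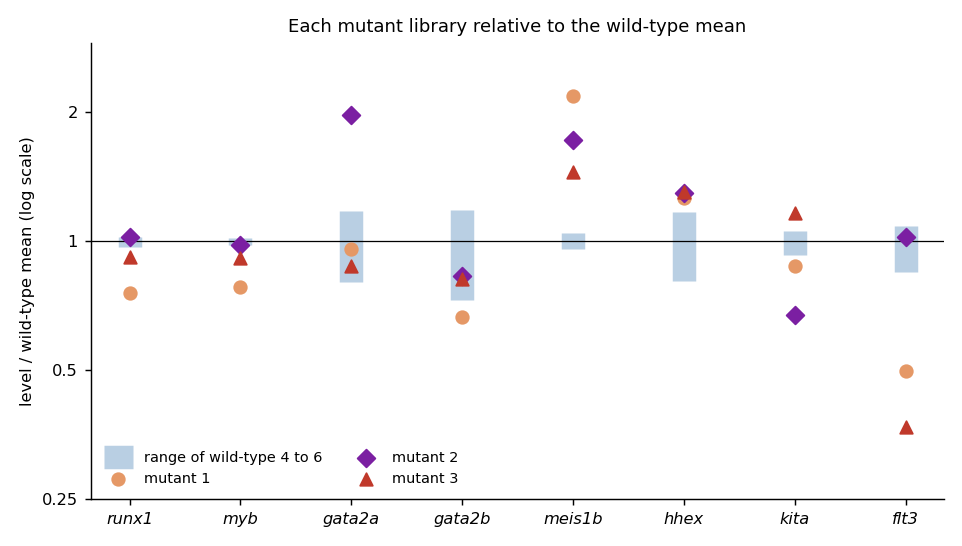
Level of each member tested in mutants 1, 2 and 3, divided by the wild-type mean and drawn on a log axis, with a pale bar for the range of the wild-type libraries. A value of 1 is the wild-type mean. Mutant 2 is at 1.97 times that mean for *gata2a* and 1.02 times for *flt3*, while all 3 mutants exceed it for *meis1b*, from 1.45 to 2.18 times.

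The relatives of these genes, meaning paralogues in the Runx, Gata, Myb, Meis, Prdm, Kit and Tal families, included both rises and falls. Of 24 listed, 20 were paired with a row and 14 were tested. Of the 14, 4 rose and 2 fell, beside 19.8% of all genes, and the median log2 fold change was 0.17. The largest change was in *tal2*, a basic helix-loop-helix gene of the same family as *lyl1*. It was at 35.9, 28.2 and 41.4 CPM in mutants and at 3.29, 0.909 and 2.87 CPM in wild type, 14.9-fold higher (log2 fold change 3.90, SE 0.40, adjusted p = 0.000504). No mutant was near any wild-type fish. *tal1*, the blood and endothelial factor of that family, rose from 107 ± 28.8 to 178 ± 13.4 CPM (SD, n = 3 each), which was 0.73 as a log2 fold change (SE 0.19, adjusted p = 0.0308). *gata1a*, an erythroid member of the Gata family, rose from 52.1 ± 19.5 to 97.2 ± 4.71 CPM (SD, n = 3 each), which was 0.90 as a log2 fold change (SE 0.25, adjusted p = 0.0382). Its paralogue *gata1b*, named after its values were seen, was not called, with a log2 difference of 0.10 (adjusted p = 0.839). Both *tal1* and *gata1a* passed 0.05 only narrowly: leaving out mutant 1, mutant 2, mutant 3 or wild-type fish 6 ended either call, with adjusted p up to 0.0968 and 0.102. The 7 erythroid markers summed to 20918 to 25921 CPM in mutants and 8676 to 18477 CPM in wild type. Most of that sum came from *hbaa1*, at 17074, 15110 and 18409 CPM in mutants 1, 2 and 3, which was not called (adjusted p = 0.0529). All 7 markers had a positive log2 difference and none was at 0. Of the 7, 1 was called higher and 0 lower, beside 19.8% of all genes called. Their part in the rise of *tal1* and *gata1a* was not tested.

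Of the receptor genes related to *kita*, only *csf1rb* and *csf1ra* were called, in opposite directions. *pdgfra* and *pdgfrb* were tested and not called. *kitb* had 4, 0 and 0 counts in mutants and 0, 2 and 6 counts in wild type, and was not tested. *csf1rb*, one of a pair of genes for the receptor of macrophage growth factors, fell from 301 ± 29.8 to 193 ± 20.8 CPM (SD, n = 3 each), with a log2 fold change of -0.64 (SE 0.12, adjusted p = 0.0102). Its paralogue *csf1ra* rose, with a log2 fold change of 0.62 (SE 0.12, adjusted p = 0.0103). Among transcription factors, *runx3*, a Runx gene active in T cells, fell from 33 ± 6.29 to 21.5 ± 1.79 CPM (SD, n = 3 each, log2 fold change -0.62, adjusted p = 0.0236). The *runx3* call ended without mutant 1 or without mutant 3, with adjusted p of 0.0892 and 0.083. *csf1ra*, *runx3*, *kitb*, *pdgfra* and *pdgfrb* were named after their values were seen. Without mutant 1, or without mutant 3, the relatives called numbered 3 in place of 6.

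The partners, transcription and chromatin factors that act with the members, numbered 36, of which 26 were tested. 4 rose and 1 fell, a share near the 19.8% of all genes called, and the median log2 fold change was 0.11. *tcf12*, which encodes an E protein that pairs with Tal and Lyl factors, fell from 18.2 ± 3.43 to 8.25 ± 0.820 CPM (SD, n = 3 each), which was -1.14 as a log2 fold change (SE 0.17, adjusted p = 0.00279). *tcf3a*, which encodes another E protein, rose, with a log2 fold change of 0.53 (SE 0.11, adjusted p = 0.0142). *zfpm1*, encoding the Gata1 cofactor Fog1, rose from 19.9 ± 4.31 to 33.6 ± 2.57 CPM (SD, n = 3 each, log2 fold change 0.75, SE 0.16, adjusted p = 0.0146). *bmi1b*, encoding a Polycomb protein needed for stem cell renewal in mammals, rose from 6.99 ± 0.851 to 11.8 ± 1.33 CPM (SD, n = 3 each, log2 fold change 0.75, SE 0.15, adjusted p = 0.0118). Its paralogue *bmi1a* rose too, with a log2 fold change of 0.46 and an adjusted p of 0.0118. Leaving out mutant 3 ended the calls of *tcf3a*, *zfpm1* and *bmi1a*, with adjusted p of 0.0543, 0.0552 and 0.0558, and left 2 partners called in place of 5.

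Some other partners were not called. *cbfb*, encoding the beta subunit that Runx1 needs to bind DNA, had a log2 difference of -0.16 (95% interval -0.41 to 0.10, adjusted p = 0.351). *lmo2*, encoding the bridge between Tal and Gata proteins, had 0.08 (95% interval -0.32 to 0.48, adjusted p = 0.781). *fli1*, an Ets factor of blood and vessels, had 0.07 (95% interval -0.13 to 0.27, adjusted p = 0.617). These 3 genes, and *bmi1a*, were named after their values were seen.

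Ligands, niche factors and signalling proteins that act around Kit, Flt3 and related receptors were listed as 33 genes, of which 27 were tested. 6 rose, 3 fell and 18 were not called, beside 19.8% called among all genes, and the median log2 fold change was -0.08. The widest fall was in *cxcr4a*, a gene for a receptor of the niche chemokine Cxcl12. It was at 16.6, 14.0 and 10.76 CPM in mutants and at 120, 140.5 and 90.8 CPM in wild type. Its log2 fold change was -3.09 (SE 0.21, adjusted p = 7.3e-05). The ligand gene *cxcl12a* went the other way, from 11.2 ± 3.46 CPM in wild type to 54.4 ± 8.83 CPM in mutants (SD, n = 3 each), which was 2.28 as a log2 fold change (SE 0.24, adjusted p = 0.000552). The groups were far apart for both *cxcr4a* and *cxcl12a*. A second ligand gene, *cxcl12b*, had 4, 8 and 16 counts in mutants and 8, 0 and 12 counts in wild type, and was not tested. It was named after its values were seen. Which ligand acts on which receptor was not tested. *cxcr4b*, named after its values were seen, had a log2 difference of -0.62 (SE 0.23, 95% interval -1.14 to -0.10) and was not called, with an adjusted p of 0.0897, while DESeq2 gave 0.0311.

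*grb2a*, encoding an adaptor that links activated receptors to Ras, was at 2.77, 3.36 and 2.83 CPM in mutants and at 0.209, 0.415 and 0.299 CPM in wild type, 9.61-fold higher (log2 fold change 3.26, SE 0.32, adjusted p = 0.000418). The wild-type values rested on 8 to 16 counts. *csf3b*, a gene for granulocyte growth factor, was at 12.5, 6.48 and 3.61 CPM in mutants and at 2.51, 1.45 and 1.45 CPM in wild type. Its log2 fold change was 2.06 (SE 0.46, adjusted p = 0.0173). The mutants were spread over a wide range, and without wild-type fish 5 or 6 the adjusted p of *csf3b* was 0.0585 or 0.0536. Of the Kit ligand genes, *kitlga* had 41, 36 and 44 counts in the mutant group, while wild type had 38, 22 and 48, with a log2 difference of 0.27 (95% interval -0.56 to 1.09, adjusted p = 0.630). *kitlgb* had no count in any library. Both ligand genes were named after their values were seen.

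**Figure D4:**
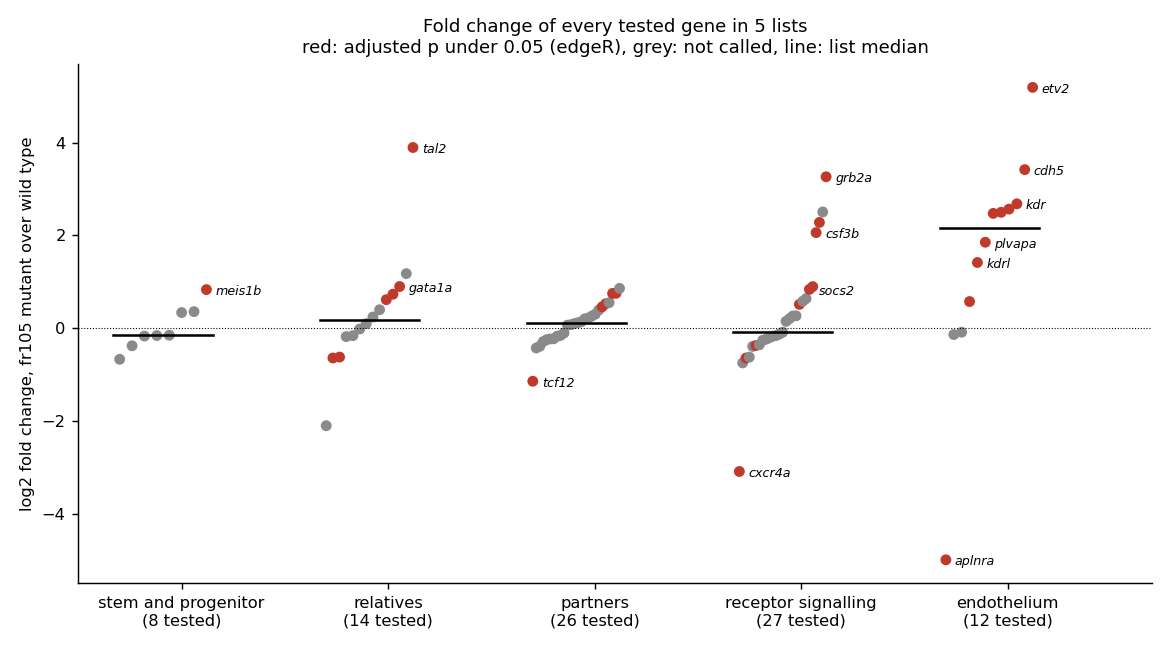
Log2 fold change of each tested gene in the members, their relatives, their partners, receptor signalling and endothelial markers, with a line for the median of each list and red points for an adjusted p under 0.05. The members lie between -0.67 and 0.83, while single genes of the other lists, such as *tal2* at 3.90 and *cxcr4a* at -3.09, reach well beyond them, and *aplnra* is drawn at a fitted value that is no bound, since it had 0, 2 and 0 counts in mutants.

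Several members are also expressed outside blood stem cells, so the marker genes of other cell types are given beside them, the single genes having been named after their values were seen. *meis1b*, *gata2a* and *hhex* are active in endothelium. Of the 13 endothelial markers 12 were tested, of which 9 rose and 1 fell, beside 11% and 8.76% of all genes tested. The summed level of the 13 was 182 to 223 CPM in mutants and 136 to 172 CPM in wild type. Most of each sum came from *tie1*, which was not called, and *tek*, which rose. *tie1* was at 86.4, 102 and 110 CPM in mutants 1, 2 and 3 and at 112, 124 and 91.8 CPM in wild-type fish 4, 5 and 6. *cdh5*, encoding the junction protein VE-cadherin, was at 6.999, 12.7 and 9.62 CPM in mutants and at 0.627, 0.753 and 1.35 CPM in wild type (log2 fold change 3.42). *etv2*, the Ets factor of endothelial and blood precursors, was at 11.4, 26.0 and 11.8 CPM in mutants and at 0.392, 0.571 and 0.374 CPM in wild type (log2 fold change 5.19). Mutant 2 was the highest library for *cdh5* and *etv2*, and the highest mutant also for *tek*, *egfl7*, *plvapa*, *stab2* and *aplnra*. It was the lowest mutant for *kdr* (3.84, 2.95 and 3.78 CPM) and *pecam1* (4.75, 3.59 and 5.84 CPM). For *kdrl*, *stab1* and *tie1* it lay between the other mutants. The rise was uneven over the list, since *tie1*, a receptor gene of vessels, had a log2 difference of -0.13 (95% interval -0.46 to 0.19), and *aplnra* had 26, 28 and 26 counts in wild type but 0, 2 and 0 in mutants. Outside *aplnra*, no endothelial marker tested was at 0 in any library. The part of endothelium in the *meis1b* difference was not tested.

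Thrombocytes, the nucleated platelets of fish, share genes with stem cells. *itga2b*, encoding the integrin CD41 found on both, was at 41.8, 33.9 and 38.0 CPM in mutants and at 5.77, 5.30 and 8.65 CPM in wild type, a log2 fold change of 2.53 (adjusted p = 0.000129). *mpl*, encoding the thrombopoietin receptor, rose from 11.7 ± 1.33 to 21.8 ± 1.00 CPM (SD, n = 3 each), which was 0.90 as a log2 fold change (SE 0.12, adjusted p = 0.00196). Of the 6 thrombocyte markers 3 rose and 1 fell, beside 11% and 8.76% of all genes tested, and *gp1bb* and *gp9* were not called. Their sums were 545 to 652 CPM in mutants and 480 to 624 CPM in wild type. The marker that fell, *selp*, had a log2 fold change of -0.63 (adjusted p = 0.0186). It was the largest part of each sum, at 216 to 241 CPM in mutants and 285 to 394 CPM in wild type. Of the 13 genes of cell division 8 were called higher and 0 lower, beside the same shares of all genes. Their summed level was 1565 to 1823 CPM in mutants against 974 to 1378 CPM in wild type. The mast cell gene *cpa5*, given beside *kita*, had a log2 difference of 0.34 (95% interval -0.09 to 0.77) and was not called. The paper lists both *cpa5* and *kita* in its profile of immature myeloid cells, so *cpa5* is not particular to mast cells. No marker of thrombocytes or of dividing cells was at 0 in any group, and their part in the values of the members was not tested.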

How the data were processed

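The deposited values are raw counts per gene, which the authors made by aligning reads with STAR 2.5.2b-1 to the zebrafish genome (Ensembl Zv10.85) and counting with featureCounts 1.6.0.1, with default parameters unless stated. Those defaults ignore strand, so genes that overlap on opposite strands are less certain. Symbols came from a gene name table that paired 26269 of 32105 genes, and supplementary tables raised this to 26361. From the counts, edgeR 4.0.16 in R 4.3.3 was run with TMM scaling, filterByExpr (at least 10 counts, 15 in total), and a two-sided quasi-likelihood F test with Benjamini-Hochberg adjustment over 16630 genes at 0.05. Genotypes came from the labels, with 3 libraries per group, each of 1 fish according to the methods, so p-values measure the spread between libraries. Exact permutation tests used log2 of CPM plus 0.5. The smallest chi-square per gene between libraries was 44.1, so none was a repeat. On simulated counts the test called 146 of 189 tested genes that were changed by 1.5 on the log2 scale, and 17 unchanged genes. In that simulation the share of false calls was therefore above the 0.05 aimed at. Smaller changes, such as those of the members, were not simulated. The members and gene lists were chosen with earlier results of these data known. The genes named are all members, the 4 called genes of each of the lists of relatives, partners and receptor signalling with the largest absolute log2 fold change, and others named as chosen after their values were seen. The alternatives tried were scaling by RLE, by the upper quartile or by library size, removal of genes over 1% of a library, DESeq2 1.42.0, a robust fit, all genes unfiltered, only genes with a mean count of 50 or more, halved counts, an adjusted p of 0.01 and each library left out. Tables used Python 3.11.15 and pandas 2.3.3. Sequences and coordinates were not used here.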

Additional observations from a re-analysis of the deposited data

How the results depend on the processing

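The calls of members and named genes kept their direction and side of the threshold in most settings. Of 120 values for members under alternatives, 117 did, 1 newly passed (*flt3* without mutant 2) and 2 changed sign, both without mutant 2: *gata2a*, at -0.12 (range over libraries left out -0.12 to 0.55), and *kita*, at 0.028 (range -0.37 to 0.03). Of 449 values for other named genes, 431 did, 15 lost the call, 1 gained it and 2 changed sign, both for *lmo2*, whose range was -0.10 to 0.20. At an adjusted p of 0.01, the genes called numbered 1399 in place of 3291, the members 0, the relatives 1, the partners 1 and the receptor signalling genes 4 in place of 9, while DESeq2 called 14 of the latter. Leaving out each library in turn gave 1927 to 2837 genes in all, 1 to 2 members, 3 to 6 relatives, 2 to 6 partners and 7 to 10 receptor signalling genes. A fit without 1 library has fewer samples. No scaling moved the median of all genes by over 0.1. No paired analysis was possible because the replicate numbers 1 to 3 of mutants and 4 to 6 of wild type are not shared. With 3 libraries per group, the 95% intervals give the precision of each difference, and at fewer than 3 counts a library *mecom* could not be compared.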
